A study of Rattus norvegicus with 12 samples.

Results

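The enzymes and the transporter of de novo fatty acid synthesis were examined in rat liver. They are 10 genes, Fasn, Acaca, Acacb, Acly, Scd, Elovl6, Me1, Acss2, Slc25a1 and Pgd, taken by name from 14218 genes that have a probe set of their own on the array. A probe set is a group of short probes aimed at one transcript, and its value is given here on the log2 scale, on which a difference of 1 is a doubling. The platform annotation listed 14 probe sets under these symbols alone. Of these, 12 varied over the 12 arrays and 2 did not (standard deviation, SD, of at most 0.01 log2), which counts as unmeasured. In this way 9 of the 10 genes were measured. Acacb had no varying probe set, and Acaca had 1 of 2. The 4 probe sets that list Pgd among several genes were left out, and none of them varied.

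Male Sprague Dawley rats, 9 weeks old at sampling, had eaten a purified AIN-93G control diet, that diet with 0.1% wakame powder, or that diet with 1% wakame powder over 28 days. Wakame, Undaria pinnatifida, is a brown alga used as food. Each diet is represented by 4 livers and 4 arrays of separate rats, out of 6 rats fed per diet and kept 3 to a cage, so that diet and cage cannot be told apart. Whole liver was used, in which fewer cells of a type and less RNA per cell cannot be told apart.

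De novo fatty acid synthesis turns surplus carbohydrate into fat. Citrate leaves the mitochondrion and is cleaved to acetyl-CoA, which is carboxylated to malonyl-CoA and joined step by step into palmitate with reducing power from NADPH, and palmitate is then elongated and desaturated. In liver the genes of this route are known to be raised by feeding, insulin and glucose through the transcription factors SREBP-1c and ChREBP, and lowered by fasting and by polyunsaturated fatty acids.

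Because the measured genes tended to be high or low on the same arrays, their promoters were read for letters bound by factors known from lipogenic genes. RefSeq promoters of the assembly GRCr8, 250 bases before to 50 after the gene start, were matched for 7 members, all except Fasn, Acaca and Elovl6. Those without a window were among the genes most alike over the arrays. Acacb, 1 of the 7, had no measured value, so its window says nothing about the shared pattern. Of the 7 windows, 5 are shown, namely Scd with one of the smallest differences, and Acly, Me1, Acss2 and Pgd with larger ones than Scd. Capitals mark CCAAT, the letters of the NF-Y box, and GGGCGG, those of the Sp1 box, on either strand, and each line reads 5′ to 3′ in the direction of the gene.
Acly, chr10:85963582-85963881, minus strand: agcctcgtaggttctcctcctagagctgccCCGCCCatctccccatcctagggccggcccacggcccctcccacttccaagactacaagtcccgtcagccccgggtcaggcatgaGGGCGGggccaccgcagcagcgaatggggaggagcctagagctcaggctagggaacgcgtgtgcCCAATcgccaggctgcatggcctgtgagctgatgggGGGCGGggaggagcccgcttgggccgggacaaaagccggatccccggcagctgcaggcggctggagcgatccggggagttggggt
Me1, chr8:96540195-96540494, minus strand: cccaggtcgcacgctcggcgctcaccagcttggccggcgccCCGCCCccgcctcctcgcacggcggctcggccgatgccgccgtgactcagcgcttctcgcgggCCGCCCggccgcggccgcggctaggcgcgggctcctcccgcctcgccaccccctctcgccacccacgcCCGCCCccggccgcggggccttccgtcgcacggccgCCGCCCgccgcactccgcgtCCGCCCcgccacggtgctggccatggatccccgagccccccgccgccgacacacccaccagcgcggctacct
Acss2, chr3:164464453-164464752, plus strand: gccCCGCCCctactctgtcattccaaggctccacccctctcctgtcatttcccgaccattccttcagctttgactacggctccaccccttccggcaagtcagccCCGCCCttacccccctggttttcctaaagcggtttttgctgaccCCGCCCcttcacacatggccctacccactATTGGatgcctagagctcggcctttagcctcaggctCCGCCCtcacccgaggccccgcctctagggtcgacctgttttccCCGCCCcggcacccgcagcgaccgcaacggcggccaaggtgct
Pgd, chr5:164881980-164882279, minus strand: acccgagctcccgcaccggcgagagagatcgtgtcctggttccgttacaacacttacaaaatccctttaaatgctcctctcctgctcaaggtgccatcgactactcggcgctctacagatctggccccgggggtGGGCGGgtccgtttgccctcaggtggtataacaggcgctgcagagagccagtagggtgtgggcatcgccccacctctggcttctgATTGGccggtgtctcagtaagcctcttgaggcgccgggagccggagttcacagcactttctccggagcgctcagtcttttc
Scd, chr1:253231682-253231981, minus strand: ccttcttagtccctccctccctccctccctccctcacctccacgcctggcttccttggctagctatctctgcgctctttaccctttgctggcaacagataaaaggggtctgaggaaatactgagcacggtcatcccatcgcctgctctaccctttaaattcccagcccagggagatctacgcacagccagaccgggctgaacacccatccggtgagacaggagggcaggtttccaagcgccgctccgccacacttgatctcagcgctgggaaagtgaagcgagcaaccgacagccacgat
Letters of CCAAT lay in 5 of the 7 windows (Acss2, Pgd, Acly, Slc25a1 and Acacb), against 37.5% of 33469 windows of the same length. Letters of GGGCGG also lay in 5 (Acss2, Pgd, Me1, Acly and Slc25a1), against 33.1%. Both stood together in 4, against 11.8%. The 5 windows with GGGCGG were 60% to 81.7% G and C, where the median over all windows was 51.7%. Windows of like G and C content were not compared. CACGTG, an E-box, was in 0 of the 7, against 6.42% of all windows, and CACNCCA, letters within the sterol regulatory element, was in 2 (Slc25a1, where it overlaps GGGCGG, and Acacb), against 17.2%. All 4 were searched on both strands. The Scd window held none of the 4. Slc25a1, not shown, also had a small difference (-0.22 log2 for 1% wakame against control), and its window held CCAAT 2 times and GGGCGG 4 times. Such a match describes letters and is not a measured binding site.

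The supply of acetyl-CoA comes first in the route. Acly, ATP citrate lyase, makes cytosolic acetyl-CoA from citrate (probe set 1367854_at). Its values were 12.30, 13.50, 12.47 and 12.39 log2 in control livers, 12.32, 11.59, 12.16 and 9.90 with 0.1% wakame, and 9.38, 9.42, 10.90 and 12.57 with 1% wakame. Control livers lay close together apart from control 2, while the 1% diet held both very low livers and 1 liver, 1% replicate 4, within the control range. The diets thus overlapped. The mean was 10.57 ± 1.51 with 1% wakame and 12.67 ± 0.56 in control (SD, n = 4), a difference of -2.10 ± 0.74 log2 (standard error, SE) that did not pass (limma, adjusted p = 0.180). Between 0.1% wakame and control it was -1.17 ± 0.74 (adjusted p = 0.601), and -0.64 without 0.1% replicate 4.

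Slc25a1 is the carrier that exports citrate from the mitochondrion (1367773_at). It read 9.87, 10.12, 9.81 and 9.74 in control, 9.96, 9.81, 9.74 and 9.53 with 0.1% wakame, and 9.59, 9.65, 9.82 and 9.60 with 1% wakame. Of the 4 livers on the 1% diet, 3 lay below every control. All 12 arrays lay between 9.53 and 10.12. The difference between 1% wakame and control was -0.22 ± 0.11 (SE, limma adjusted p = 0.300), and that between 0.1% wakame and control -0.13 ± 0.11 (adjusted p = 0.715).

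Acss2, which makes acetyl-CoA from acetate in the cytosol and nucleus (1375944_at), read 10.76, 10.77, 10.42 and 9.90 in control, 10.07, 10.30, 10.10 and 9.29 with 0.1% wakame, and 9.64, 9.72, 9.69 and 10.10 with 1% wakame. Again 1% replicate 4 was the liver of its diet that reached the control range. The difference was -0.67 ± 0.24 for 1% wakame against control (adjusted p = 0.189) and -0.52 ± 0.24 for 0.1% wakame against control (adjusted p = 0.452, limma).

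Acaca encodes acetyl-CoA carboxylase 1, which makes the malonyl-CoA used for synthesis (1370893_at). It read 10.19, 11.49, 10.41 and 9.77 in control, 10.21, 9.73, 9.80 and 9.27 with 0.1% wakame, and 9.39, 9.16, 9.82 and 10.34 with 1% wakame. Control 2 stood well above the other controls, and the 3 diets overlapped. The difference from control was -0.79 ± 0.37 with 1% wakame and -0.71 ± 0.37 with 0.1% wakame (adjusted p = 0.288 and 0.519, limma), and -0.08 ± 0.37 between 1% and 0.1% wakame. Without control replicate 2 the differences from control were -0.45 with 1% wakame and -0.37 with 0.1% wakame. Acacb, the carboxylase at the mitochondrion whose product restrains fatty acid import, gave no measured value, since its probe set held 6.32 on every array, and the second Acaca probe set held 6.47.

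Fasn, fatty acid synthase, builds palmitate. Its brighter probe set (1367708_a_at) read 11.37, 13.58, 11.68 and 11.05 in control, 11.16, 10.56, 9.97 and 9.00 with 0.1% wakame, and 9.18, 8.37, 9.67 and 11.27 with 1% wakame. A liver in each wakame group, 0.1% replicate 1 and 1% replicate 4, lay within the control range and the other 3 of each lay below every control. Between 1% wakame and control the difference was -2.30 ± 0.72 (adjusted p = 0.131, limma), which is 4.92-fold lower on the linear scale. Between 0.1% wakame and control it was -1.74 ± 0.72 (adjusted p = 0.391).
The second Fasn probe set (1367707_at) read 10.70, 13.61, 10.93 and 10.37 in control, 10.58, 9.79, 9.19 and 8.22 with 0.1% wakame, and 8.46, 7.23, 8.83 and 9.97 with 1% wakame. Here 1% wakame and control did not overlap. The difference was -2.78 ± 0.80 (adjusted p = 0.106). The sign was shared by both probe sets and neither passed.

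Elovl6 elongates palmitate to stearate and had the smallest p of the 9 measured genes for 1% wakame against control. Its brighter probe set (1388108_at) read 9.51, 10.46, 8.95 and 8.70 in control, 8.38, 8.48, 8.22 and 6.89 with 0.1% wakame, and 7.02, 6.21, 7.12 and 8.26 with 1% wakame. Every liver on either wakame diet lay below every control liver. The mean was 7.15 ± 0.84 with 1% wakame and 9.41 ± 0.78 in control (SD, n = 4), a difference of -2.25 ± 0.52 or 4.77-fold (limma adjusted p = 0.0605, exact permutation p = 0.0286 unadjusted and two-sided, the smallest that 4 against 4 can give). Between 0.1% wakame and control it was -1.41 ± 0.52 (adjusted p = 0.339, limma). The dimmer probe set (1394401_at) read 7.84, 8.93, 7.13 and 6.76 in control, 6.83, 6.64, 6.17 and 5.51 with 0.1% wakame, and 5.68, 5.32, 5.96 and 6.53 with 1% wakame. Its mean over the 12 arrays, 6.61, lay near the arrays' median of 6.59, and every 1% value lay below that median. Here 1% wakame and control did not overlap, with a difference of -1.79 ± 0.47 (adjusted p = 0.0830, limma), while 0.1% replicate 1 lay just inside the control range. Elovl6 thus came close to the threshold and did not pass it. It passed when 0.1% replicate 4 was left out of the shared fit (adjusted p = 0.0486), and over the other alternatives its adjusted p went up to 0.333.

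Scd, stearoyl-CoA desaturase, which makes oleate and palmitoleate (1370355_at), differed least for 1% wakame against control. Its values were 13.37, 13.82, 13.64 and 13.39 in control, 13.37, 13.10, 13.48 and 13.38 with 0.1% wakame, and 13.43, 13.39, 13.31 and 13.45 with 1% wakame. The diets overlapped widely. The mean of Scd over the 12 arrays, 13.43, lay above 99.9% of probe sets other than controls. Whether the array still resolves differences at that level was not tested. The difference was -0.16 ± 0.11 for 1% wakame against control (adjusted p = 0.464) and -0.22 ± 0.11 for 0.1% wakame against control (adjusted p = 0.473, limma).

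NADPH for the route comes from Me1 and Pgd. Me1, cytosolic malic enzyme, read 11.98, 11.05, 9.81 and 10.70 in control, 10.41, 8.37, 10.39 and 8.85 with 0.1% wakame, and 8.63, 7.91, 9.44 and 9.71 with 1% wakame on its brighter probe set (1370067_at). Every liver on the 1% diet lay below every control, and the 0.1% livers formed a pair within the control range and a pair below it. The difference was -1.96 ± 0.61 for 1% wakame against control (3.90-fold, adjusted p = 0.129) and -1.38 ± 0.61 for 0.1% wakame against control (adjusted p = 0.423, limma).
The second Me1 probe set (1370870_at) read 11.81, 11.46, 9.70 and 11.05 in control, 10.17, 7.88, 10.45 and 8.08 with 0.1% wakame, and 7.58, 6.67, 8.80 and 9.32 with 1% wakame. Again 1% wakame and control did not overlap. Its difference was larger, at -2.91 ± 0.77 (adjusted p = 0.0855). The size of the Me1 difference therefore depended on the probe set.

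Pgd, 6-phosphogluconate dehydrogenase of the pentose phosphate pathway (1371646_at), read 10.27, 10.48, 9.48 and 9.22 in control, 9.68, 8.94, 9.31 and 8.49 with 0.1% wakame, and 8.78, 8.68, 8.92 and 9.19 with 1% wakame. The livers on the 1% diet lay close together and below every control, the highest of them only just. The difference was -0.97 ± 0.31 for 1% wakame against control (adjusted p = 0.146) and -0.76 ± 0.31 for 0.1% wakame against control (adjusted p = 0.393, limma).

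**Figure D1:**
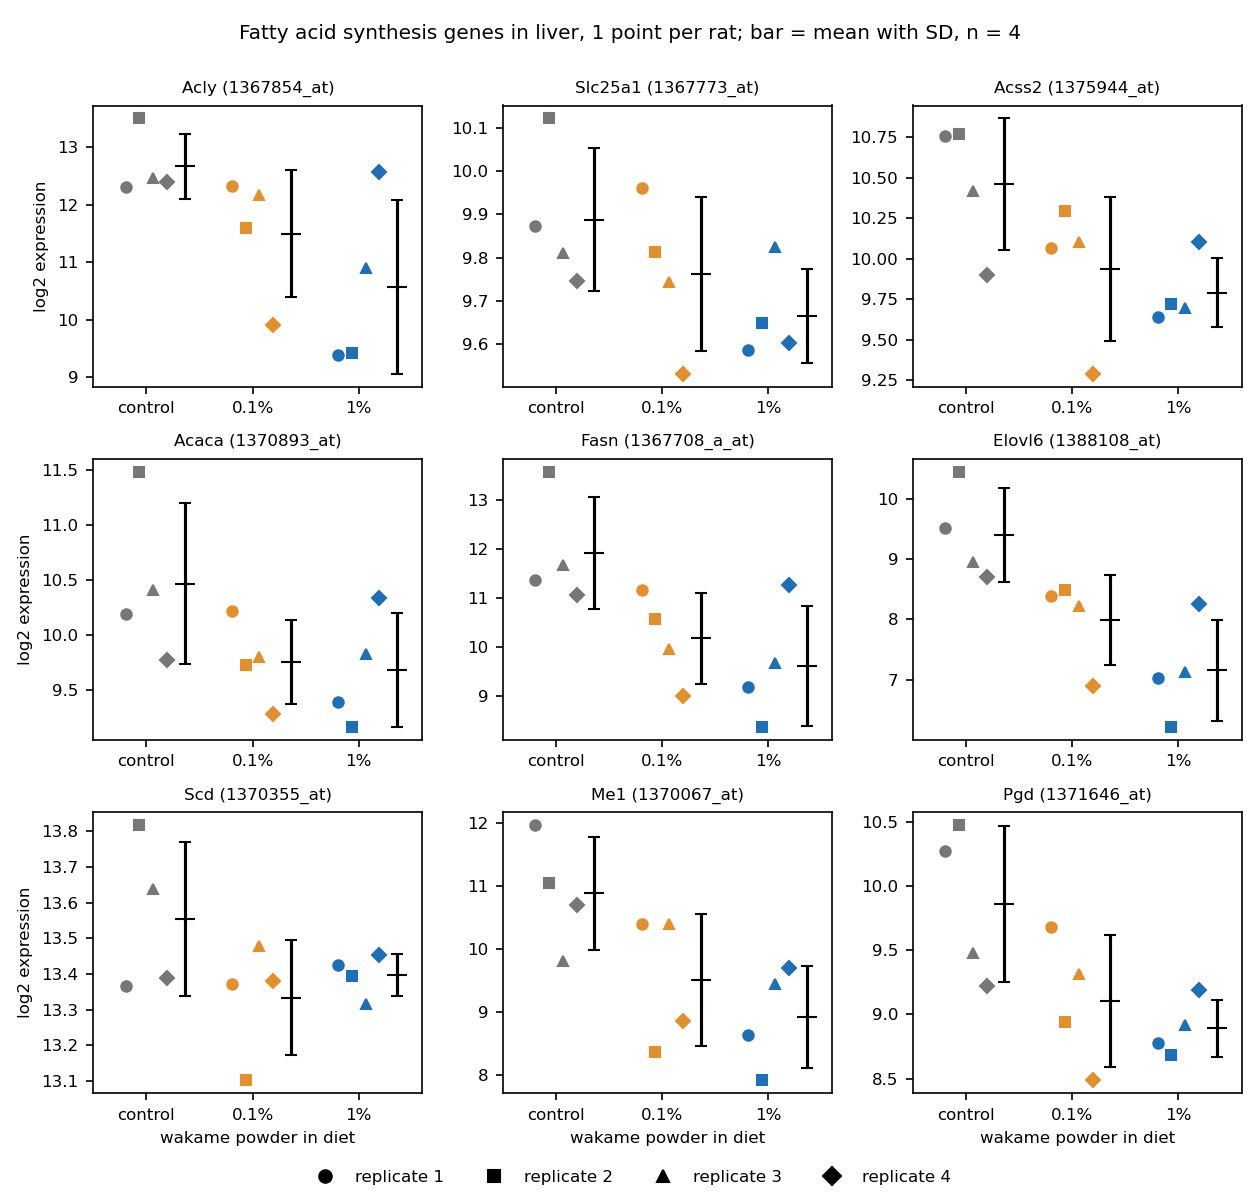
Log2 expression (vertical axis, scaled per gene) of the 9 measured genes in each liver by diet, on the brightest varying probe set. Points are rats, symbols are replicate numbers, and bars are means with SD (n = 4). Elovl6, Me1 and Pgd on the 1% diet do not overlap control, while Scd spans only 13.10 to 13.82.

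Read together, the measured genes lay lower with wakame but none passed. For 1% wakame against control, 0 of 9 genes were called at an adjusted p under 0.05, where 1.67% of all 3240 varying probe sets were. All 9 lay below control, with a median difference of -0.97 log2, beside -0.02 over all varying probe sets, of which 55.1% lay below control. At an unadjusted p under 0.05, 6 of the 9 (Fasn, Acly, Elovl6, Me1, Acss2 and Pgd) lay lower, where 10.1% of all varying probe sets did (18.5% in either direction). That count was 1 of 9 with a sign of RNA integrity, given at the end, as a covariate. The share of all varying probe sets in that fit is not given here. Exact permutation p (unadjusted, two-sided) was 0.0286 for Elovl6, Me1 and Pgd, 0.0571 for Fasn and Acss2, and 0.114 for Acly. In 3 of the 9, Elovl6, Me1 and Pgd, the 2 diets did not overlap, where 6.05% of all varying probe sets lay below control without overlap. The genes were chosen with earlier results of these data known, so these counts describe them and are no separate test.

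For 0.1% wakame against control, 0 of 9 were called, where 0.0617% of all varying probe sets were. All 9 again lay below control, with a median of -0.76 beside -0.02 over all varying probe sets, of which 55.9% lay below control. Fasn, Elovl6, Me1 and Pgd, 4 of the 9, had an unadjusted p under 0.05, where 6.73% of all varying probe sets did in that direction. That count was 0 without control replicate 2 and 0 without 0.1% replicate 4. Exact permutation p (unadjusted, two-sided) was 0.0286 for Elovl6, 0.0571 for Fasn, 0.114 for Me1 and 0.143 for Pgd. The comparisons of either dose with control use the same 4 control livers. Elovl6 was the 1 gene of 9 without overlap, where 3.36% of all varying probe sets were.

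Between the doses, 1% against 0.1% wakame, 0 of 9 genes passed, as did 0% of all varying probe sets. An unadjusted p under 0.05 was reached by 0 of 9 (3.06% of all varying probe sets on the lower side), and 0 of 9 were free of overlap (1.94%). Lower means with 1% wakame were found in 8 of 9 (51%), with a median difference of -0.21. Acly, Elovl6, Me1 and Fasn were at -0.92 ± 0.74, -0.84 ± 0.52, -0.58 ± 0.61 and -0.55 ± 0.72 (SE), which with the RNA integrity covariate were -0.13, -0.35, -0.15 and 0.015. With each array left out Fasn ran from -1.10 to -0.14 and Me1 from -0.96 to -0.25. Scd was at 0.06 ± 0.11, the 1 gene above 0 when no covariate was used and no array left out. The means of 8 of the 9 genes stepped down in the order control, 0.1% and 1% wakame, as did those of 26% of all varying probe sets. In the F-test for any difference among the diets 0 of 9 passed (limma, lowest adjusted p = 0.142, for Elovl6) and 6 had an unadjusted p under 0.05, where 0.185% and 14.2% of all varying probe sets did.

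**Figure D2:**
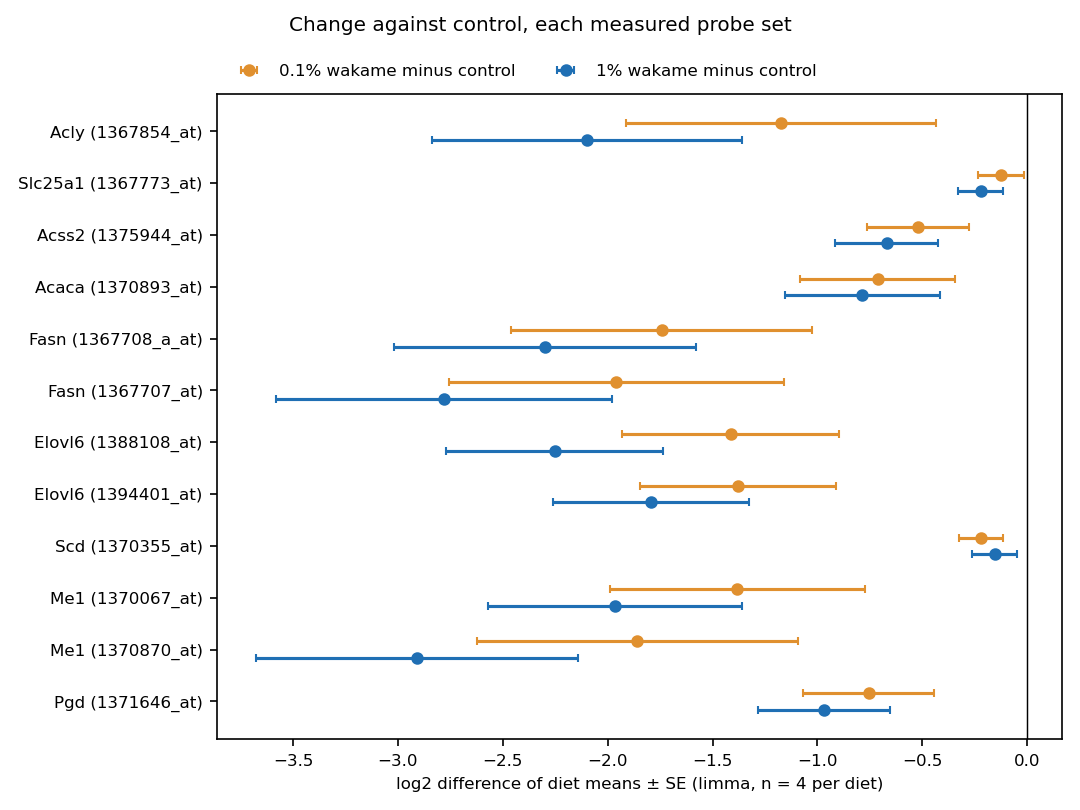
Log2 difference from control with SE (horizontal axis) for each of the 12 measured probe sets, 0.1% wakame above 1% wakame in each row (limma, n = 4 per diet). All 24 differences lie below 0. They run from -2.91 for the second Me1 probe set to -0.13 for Slc25a1, and none passed an adjusted p of 0.05.

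The spread between rats on one diet was wide for these genes. The SD within diets was 1.10 log2 for Fasn, 1.13 for Acly, 0.93 for Me1 and 0.79 for Elovl6, beside a median of 0.21 over all varying probe sets. These 4 exceeded 94.7% or more of all varying probe sets in that spread. Slc25a1 and Scd, at 0.15 and 0.16, lay below that median, and Acaca, Pgd and Acss2 were between, at 0.56, 0.48 and 0.37.

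The wide spread came from the same livers in most of the 9 genes. Control 2 was the highest control in 8, with Me1 the exception, and control 4 the lowest control in 6. With 0.1% wakame, replicate 4 was the lowest in 7 and replicate 1 the highest in 6. With 1% wakame, replicate 4 was the highest in 8 and replicate 2 the lowest in 5. The mean over the 9 genes was 9.45, 9.17, 9.86 and 10.50 log2 in the 1% livers, 10.62, 10.10, 10.35 and 9.40 in the 0.1% livers, and 11.07, 11.70, 10.74 and 10.54 in control. Control 4 and 1% replicate 4 thus nearly met, and 0.1% replicate 4 lay with the lower 1% livers. Left out in turn, these arrays moved the median difference between 1% wakame and control to -0.76 (without control 2), -1.18 (without control 4) and -1.07 (without 1% replicate 4).

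**Figure D3:**
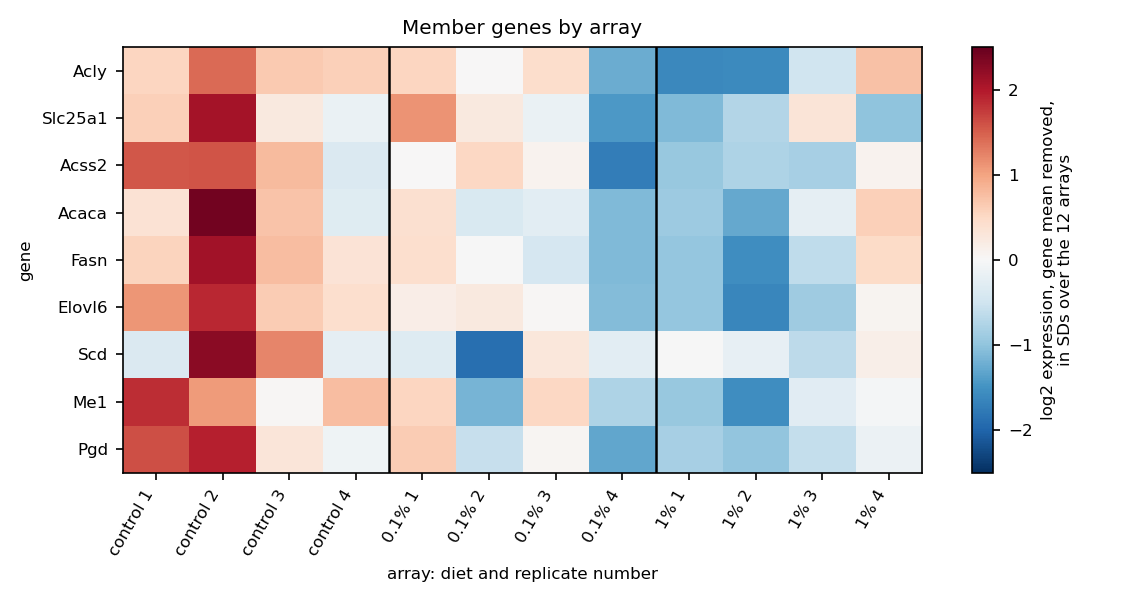
Expression of the 9 genes (rows) on the 12 arrays (columns, grouped by diet), each gene with its mean removed and divided by its SD over the arrays. Red is high and blue is low. Control 2 is high in nearly every row, and 0.1% replicate 4 and 1% replicates 1 and 2 are low in most, except in Scd.

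Each gene was also set against the mean standardised profile of the other 8. Over the 12 arrays Pearson's r was 0.95 for Fasn, Elovl6 and Pgd, 0.93 for Acaca, 0.88 for Acly, 0.86 for Acss2, 0.79 for Slc25a1, 0.77 for Me1 and 0.53 for Scd. After the mean of each diet was removed, r was 0.93 for Acaca, 0.90 for Elovl6 and 0.89 for Fasn, and 0.53 and 0.33 for Me1 and Scd. Fasn, Acaca, Elovl6 and Pgd therefore followed the group between rats of one diet as well as between diets, and Scd did so least. These values describe genes that share arrays and RNA extracts, and no test was made.

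The 6 other genes whose pattern over the 12 arrays was most like that of the 9, among 2571 varying probe sets of other single genes, were Pnpla3, a lipid hydrolase (r = 0.96, Spearman's rho = 0.90), Anp32a, a nuclear phosphoprotein (0.95 and 0.92), the nucleotide receptor P2ry2 (0.94 and 0.89), Secisbp2l (0.94 and 0.90), Hacd3, a dehydratase of fatty acid elongation (0.92 and 0.86), and the Hes family factor Hes6 (0.91 and 0.90). They were picked for this likeness, so no test applies. For 1% wakame against control they were at -3.84 ± 1.10, -0.24 ± 0.09, -0.89 ± 0.41, -0.56 ± 0.16, -0.40 ± 0.13 and -0.71 ± 0.23 log2 (SE) in that order. None of these probe sets passed (limma, adjusted p from 0.102 to 0.280).

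Neighbouring genes of the pathway were read from 7 lists of 94 genes, of which 87 were on the array and 53 varied. For 1% wakame against control, 39 of the 53 lay lower (55.1% of all varying probe sets did), 9 lower (10.1%) and 1 higher had an unadjusted p under 0.05, and 0 passed (1.67%). Their median was -0.13. For 0.1% wakame against control, 36 lay lower (55.9%), 7 lower (6.73%) and 2 higher had an unadjusted p under 0.05, and 0 passed (0.0617%), with a median of -0.06.

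Among the regulators, 7 of 20 on the array varied and 6 lay lower with 1% wakame (median -0.81), 3 of them at an unadjusted p under 0.05, where 10.1% of all varying probe sets were. With 0.1% wakame 5 of the 7 lay lower, 1 of them at an unadjusted p under 0.05 (6.73%), and the median was -0.08. Prkab1, a subunit of the energy sensor AMPK, was at -0.79 ± 0.22 (adjusted p = 0.0945), Mid1ip1, which promotes polymerisation of acetyl-CoA carboxylase, at -1.05 ± 0.29 (adjusted p = 0.0951), and Srebf1, which encodes SREBP-1, at -1.07 ± 0.37 (adjusted p = 0.165, limma). Other enzymes of NADPH supply and the pentose phosphate pathway had 6 of 8 lower with a median of -0.12. Tkt, transketolase, was at -0.36 ± 0.15 (adjusted p = 0.243) and Aldh1l1, a folate enzyme that yields NADPH, at -0.35 ± 0.25 (adjusted p = 0.494). H6pd, which makes NADPH in the endoplasmic reticulum, lay the other way at 0.41 ± 0.12 (adjusted p = 0.118), above every control in all 4 livers.

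In citrate, pyruvate and acetyl-CoA supply 8 of 12 lay lower, by a median of only -0.04. Mdh1, cytosolic malate dehydrogenase, was at -0.27 ± 0.09, Acat2, a cytosolic thiolase, at -0.63 ± 0.31 and Pklr, liver pyruvate kinase, at -0.42 ± 0.23 (adjusted p = 0.143, 0.310 and 0.356, limma). Other elongation and desaturation enzymes had 8 of 9 lower with a median of -0.13, and Hacd3, Hacd2 and Elovl5 were at -0.40 ± 0.13, -0.18 ± 0.09 and -0.06 ± 0.06. A dimmer Hacd3 probe set (1383587_at) fell by 0.67 ± 0.14 (adjusted p = 0.0485), the 1 probe set of the 7 lists to pass, and did not pass in the fit of all probe sets (adjusted p = 0.249). Acyl-CoA synthetases and binding proteins had 6 of 7 lower with a median of -0.33, with Dbi, Fabp1 and Acsl3 at -0.33 ± 0.16, -0.07 ± 0.04 and -0.37 ± 0.21.

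In triglyceride assembly 5 of 8 lay lower with a median of -0.19. Pnpla3 on its brightest probe set, another one than above, was at -5.22 ± 1.39 (adjusted p = 0.0856), Gpam, the first acyltransferase of glycerolipid synthesis, at -0.55 ± 0.17 (adjusted p = 0.131) and Agpat2 at -0.15 ± 0.06 (adjusted p = 0.211, limma). The 3 that lay higher were Lpin1 at 1.04 ± 0.58, Lpin2 at 0.45 ± 0.21 and Dgat2 at 0.12 ± 0.13 (limma, adjusted p = 0.367, 0.276 and 0.691). For 0.1% wakame against control Lpin1 was at 1.91 ± 0.58 without overlap (limma, adjusted p = 0.228). Mitochondrial fatty acid synthesis, a separate route, had 2 varying genes of 7, Mecr at 0.04 ± 0.10 and Cbr4 at 0.01 ± 0.05.

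**Figure D4:**
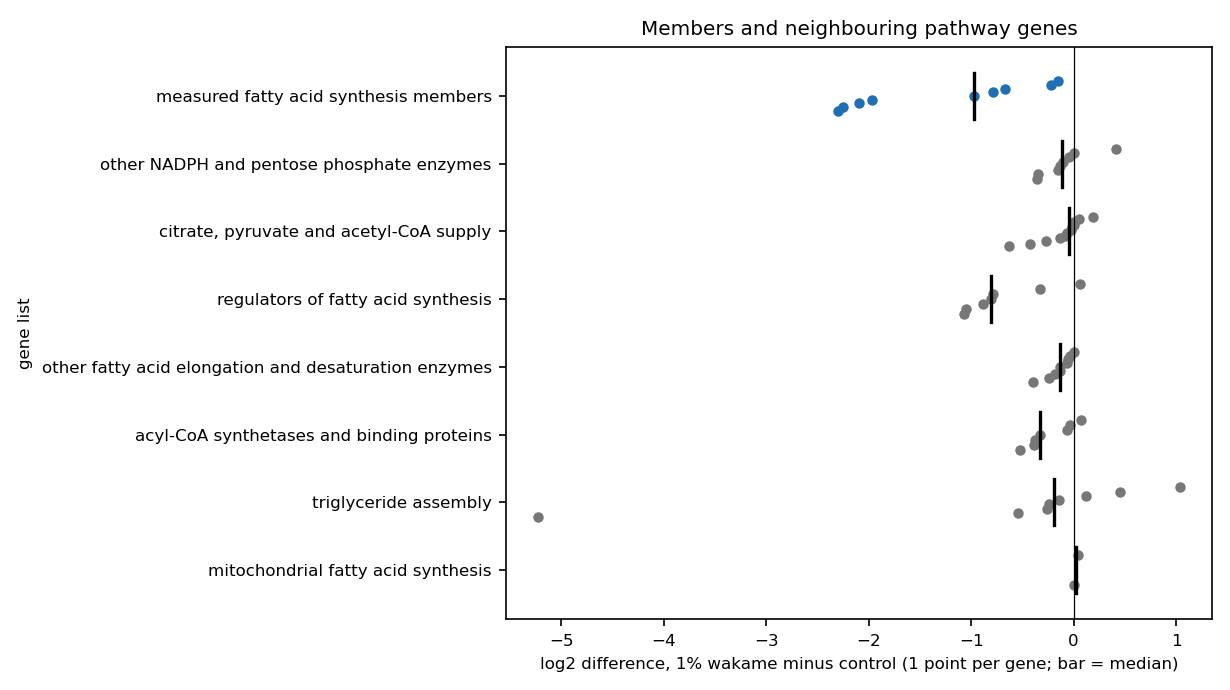
Log2 difference between 1% wakame and control (horizontal axis) for the 9 measured genes of fatty acid synthesis and the varying genes of 7 neighbouring lists, 1 point per gene on its brightest varying probe set. Black bars are medians. The synthesis genes have a median of -0.97 and the regulators one of -0.81, while the other lists lie between -0.33 and 0.02.

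The 9 hepatocyte markers on the array all lay above the arrays' median of 6.59. Of these, 3, albumin (Alb) among them, were flat, and the 6 that varied had 2 lower and 4 higher with 1% wakame than in control. Tat, tyrosine aminotransferase, was at -1.04 ± 0.48 for 1% wakame against control and -1.81 ± 0.48 for 1% against 0.1% wakame (limma adjusted p = 0.280 and 0.498, the second with an unadjusted p of 0.0033). Cyp2e1, a cytochrome P450, was at 0.67 ± 0.35 for 1% wakame and 0.90 ± 0.35 for 0.1% wakame against control, and the transcription factor Hnf4a at 0.08 ± 0.09 and 0.23 ± 0.09 in the same order (limma, adjusted p of at least 0.338 in all 4). For 0.1% wakame against control the unadjusted p was 0.0277 for Cyp2e1 and 0.0310 for Hnf4a (limma). Apoa1, Apob and Cps1 lay within 0.05 of control with either diet. Of 8 adipocyte markers 7 were flat and so gave no comparison, with Adipoq, Lep, Plin1, Fabp4 and Pparg under the arrays' median and Cidec and Lipe above it. The 1 that varied, Cfd, also above it, was at 7.595 to 8.33 with 1% wakame and 7.22 to 7.93 in control. Of the stellate cell and fibroblast markers 5 of 8 on the array varied and all 5 lay higher with 1% wakame (median 0.21). Of these, 1 had an unadjusted p under 0.05 and 0 passed (limma). Of all 3240 varying probe sets 1456 lay higher, 272 of them at an unadjusted p under 0.05, and 1.67% passed in either direction. The summed level of the stellate list was 11.60 to 11.94 with 1% wakame and 11.50 to 11.83 in control. Of the varying markers of other cell types, 3 of 4 for Kupffer cells and macrophages lay higher. So did 2 of 2 endothelial, 2 of 2 erythroid and 1 of 1 exocrine pancreas markers, and the 1 lymphocyte marker lay lower. The part of these cell types in the results was not tested. A sign of RNA integrity, the difference between the 3-prime and 5-prime Gapdh probe sets, was 1.22, 1.42, 1.17 and 1.04 in the 1% livers and 1.04 to 1.07 in control. The 1% liver with the largest such difference, replicate 2, was the lowest in 5 of the 9 genes and the one with the smallest, replicate 4, was the highest in 8. In the 0.1% livers replicate 1, with the largest such difference, was the highest in 6. The same difference for beta-actin was 2.42, 2.28, 2.40 and 2.43 in the 1% livers and 2.21 to 2.49 in control. By beta-actin, replicate 2 was the lowest and replicate 4 the highest of the 1% livers, while by Gapdh replicate 2 was the highest and replicate 4 the lowest. What part RNA integrity had in the values of the 9 genes was not tested. With the Gapdh difference as a covariate, 9 of 9 genes lay lower with 1% wakame and 1 of 9, Elovl6, had an unadjusted p under 0.05. The share of all varying probe sets at that p in this fit is not given here. The covariate itself differed between the diets (mean 1.21 with 1% wakame and 1.05 in control), so diet and covariate cannot be fully told apart. This fit called 4 of all 3240 varying probe sets, against 54 without the covariate. Acly was then at -1.14 ± 0.77, against -2.10 without the covariate, Acaca at -0.48 ± 0.44, against -0.79, Fasn at -1.61 ± 0.83, against -2.30, and Elovl6 at -1.65 ± 0.57, against -2.25. Pgd, the median gene, was at -0.88 ± 0.40, against -0.97.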

How the data were processed

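Liver RNA of 12 rats was measured on an Affymetrix expression array, labelled with a 3-prime kit per the labels' protocols. The authors deposited 1 table of log2 values with 31099 probe sets. Values ran from 3.15 to 14.6, which fits a log2 scale. The submitters' processing notes name R 2.7.2. How background, normalization and summarisation were done is not given in the sources used here. Of 31042 probe sets without the 57 controls, 27802 (89.6%) were flat (SD at most 0.01 log2 over 12 arrays).

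A mean per diet was fitted with limma 3.58.1 (R 4.3.3, eBayes with trend) to the 3240 varying probe sets, without further normalization, and p-values were adjusted over all of them (Benjamini-Hochberg, threshold 0.05). SE comes from this fit. The brightest varying probe set stands for a gene. From each list the 3 genes with the lowest p for 1% wakame against control are named, plus any that passed. In triglyceride assembly the genes that lay higher are named as well. The 6 genes most like the members are also named. The members, lists and the restriction to varying probe sets were chosen with earlier results of these data known. Gene symbols came from the platform annotation. The fit was run on simulated data with independent genes and changes larger, against the spread within diets, than those of the members. That run does not show how the fit does for changes of the members' size. Exact permutation tests used scipy 1.17.1. Alternatives were all probe sets, an SD limit of 0.1, no trend, quantile normalization, the replicate number as a block, the pair of diets alone, a Gapdh covariate, other probe-set rules and each array left out. No scan or batch labels were used. Precision is limited by having 4 arrays a diet.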

Additional observations from a re-analysis of the deposited data

Results flagged for a closer look

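Dixon's test marked 3 of 36 groups of 4 livers in the measured probe sets, where chance marks about 1 in 20. Acly in control 2, at 13.50 log2 beside 12.47 for the next control, had a gap of 0.858 of the range. Elovl6 (1388108_at) in 0.1% replicate 4, at 6.89 beside 8.22, had a gap of 0.831. Acss2 in 1% replicate 4, at 10.10 beside 9.72, had a gap of 0.8293, barely above the critical value. All 3 livers also stand at the end of their diet in most other measured genes of the route.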

How the results depend on the processing

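No measured gene was called in any pair of diets under any alternative, except Elovl6 for 1% wakame against control without 0.1% replicate 4, so that the count called lay between 0 and 1 with each array left out. In the fit of all 31042 probe sets the lowest adjusted p of the 9 was 0.333, and that fit called 9 probe sets where the fit of varying ones called 54. The count of all calls was 28 with the pair of diets alone, 12 with the replicate block and 4 with the Gapdh covariate, and 7 to 49 with each array left out, lowest without 1% replicate 2 (7), control 2 (8) and control 4 (9). The count of genes lower at an unadjusted p under 0.05 for 1% wakame against control was 6, and 1 with the Gapdh covariate, 5 to 8 with each array left out. For 0.1% wakame against control it was 4, and 2 both with the replicate block and with the pair of diets alone, 7 of 12 with probe sets counted singly, and 0 to 6 with each array left out. Between the doses it was 0, and 0 to 2 with each array left out, 2 without 1% replicate 4 and 1 without 0.1% replicate 4. Counted singly, the probe sets had medians of -1.88 and -1.28 for 1% and 0.1% wakame against control, as Fasn, Elovl6 and Me1 then enter by 2 probe sets each. With each array left out the medians for these comparisons ran from -1.18 to -0.76 and from -0.97 to -0.55, and between the doses from -0.42 to -0.11. Without control 2, Scd was at -0.07 and -0.13 and Slc25a1 at -0.14 and -0.05 for 1% and 0.1% wakame against control, and without 0.1% replicate 4 Acss2 was at -0.31 for 0.1% wakame against control. Between the doses, the small differences of Fasn (0.015) and Acaca (0.18) changed sign with the Gapdh covariate, that of Acaca without 0.1% replicate 1 (0.08), 1% replicate 1 (0.02) and 1% replicate 2 (0.10), and that of Scd without 0.1% replicate 2 (-0.013). With each array left out Acaca ran from -0.29 to 0.10 and Scd from -0.013 to 0.11. The cause was not tested. Same-numbered arrays of different diets had deviations correlated at -0.12 to 0.09, and an array correlated best with its own number in 4 of 24 comparisons with another diet, so the numbers were not taken as pairs. No value for the F-test with 2 diets alone exists. Without scanner files no background level is known.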
